A study of Rattus norvegicus with 9 samples.

Results

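The B cell precursor genes described here are 8 genes chosen by name: Rag1, Rag2, Dntt, Vpreb1, Igll1, Ebf1, Il7r and Cd24. They are 8 of the 23768 genes in the count table, and all 8 passed the filter on low counts that left 16816 genes for testing. Total RNA was sequenced from the tibia of male Sprague Dawley rats in 3 groups of 3 libraries. The Model group holds libraries 1, 2 and 5, and the groups treated with GelMA, a light-curable gelatin hydrogel, and with PMLGH each hold libraries 2, 3 and 4. The series title places the work in diabetic bone healing with a peptide modelled on lysyl oxidase, which cross-links collagen. The labels give no age or sampling time, do not say what the Model group received, and do not spell out PMLGH. Whether the libraries of a group come from different animals is not stated either, so the p-values measure the spread between libraries, which may be technical.

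B lymphocytes are made in bone marrow, where precursors assemble the immunoglobulin heavy chain gene from V, D and J segments before the light chain gene. A precursor that has made a heavy chain shows it on its surface with a stand-in called the surrogate light chain, and this precursor B cell receptor signals the cell to divide. The transcription factor EBF1 commits cells to the lineage, the cytokine IL-7 supports them through its receptor, and CD24 is a surface protein that is abundant on precursors and declines as they mature. A tibia sample holds marrow together with bone and attached tissue, and in such bulk RNA fewer precursor cells and less RNA per cell cannot be told apart.

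Library totals ran from 34571478 to 37166383 counts, and the 8 genes together took 0.0176% to 0.0264% of them in Model, 0.0285% to 0.0333% in GelMA and 0.0183% to 0.0235% in PMLGH. Counts of single members ran from 39 for Vpreb1 in Model 5 to 4937 for Cd24 in GelMA 4. Genes of bone were present in every group. Bglap averaged 252 CPM (counts relative to library totals after TMM adjustment) in Model, 517 in GelMA and 437 in PMLGH. Col1a1, a main collagen chain of bone but not of bone alone, averaged 9734 CPM in Model, 18385 in GelMA and 20641 in PMLGH. Of the Model libraries, Model 2 stood apart. A chi-square statistic per gene between Model 2 and the other Model libraries was 33.5 and 28.1, against 15.9 between those other libraries and 7.57 to 17.1 within GelMA and PMLGH. Model 2 was the highest Model library for all 8 members, so results against Model are given with and without it where it changes them.

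By mean, 7 of the 8 B cell precursor genes were highest in GelMA. Summed over the 8 members, the level was 192, 265 and 179 CPM in Model 1, 2 and 5, 285, 310 and 326 CPM in GelMA 2, 3 and 4, and 201, 235 and 185 CPM in PMLGH 2, 3 and 4. The GelMA libraries were above every other library in this sum. Without Cd24 and Il7r the sum was 91.5, 118 and 77.5 CPM in Model and 118, 149 and 153 CPM in GelMA, in replicate order. It was 92.5, 108 and 83.1 CPM in PMLGH. In this smaller sum GelMA 2 was level with Model 2, and the GelMA libraries stayed above the PMLGH libraries. Among the means of the 8 members, Il7r was the exception, being highest in PMLGH. All adjusted p-values come from edgeR's quasi-likelihood test with Benjamini-Hochberg adjustment over the 16816 genes, and a gene was called at an adjusted p under 0.05. Fold changes are given as log2 values ± SE, or with a 95% interval.

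**Figure D1:**
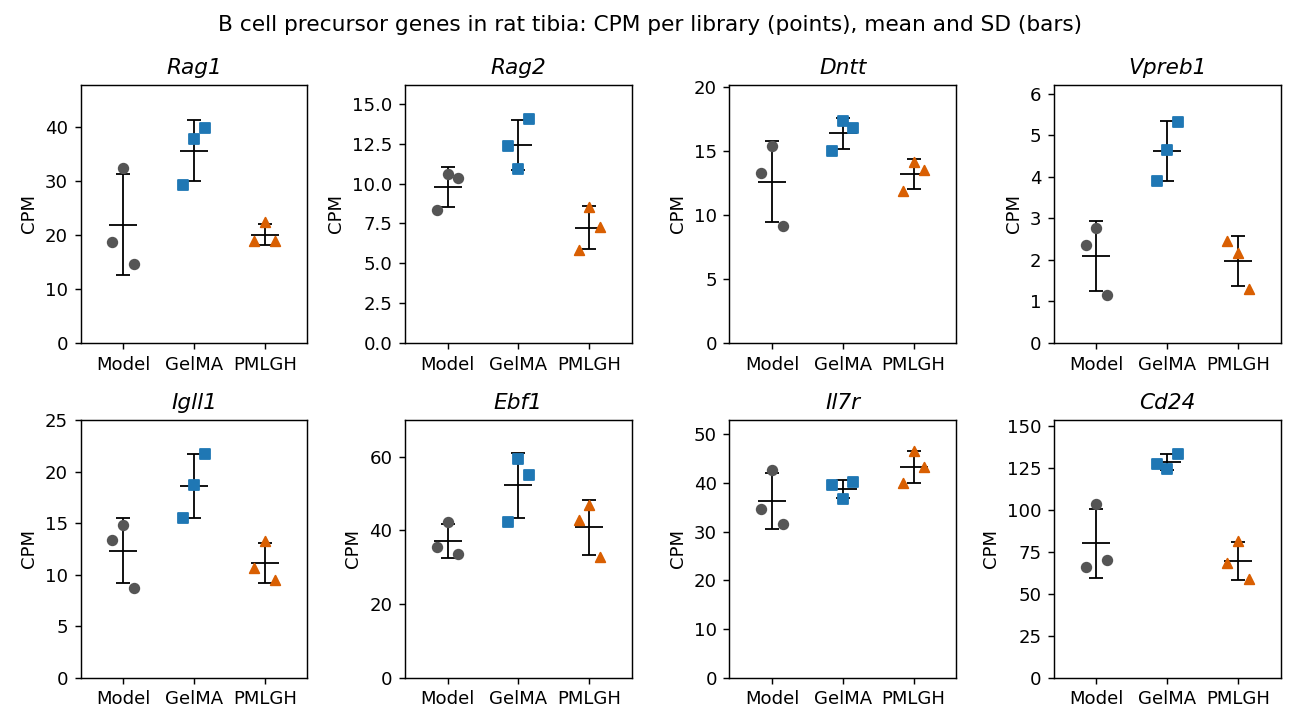
CPM of the 8 B cell precursor genes (vertical axes, linear from 0) in the 3 Model, 3 GelMA and 3 PMLGH libraries, with points for libraries and bars for the mean and SD. Cd24 sits at 124 to 133 CPM in GelMA, above all 6 other libraries, while the Il7r points of the 3 groups lie within 31.6 to 46.5 CPM.

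Promoter sequence is shown for Rag1, the surrogate light chain genes Vpreb1 and Igll1, Cd24, and Vpreb2, a close copy of Vpreb1. Rag2 and Ebf1, which were also called, are not shown. Their windows held no match to the motifs named below. The windows run from 250 bases before to 50 bases after the annotated start, 5′ to 3′ on the strand of the gene, and come from RefSeq on the rat assembly GRCr8. The coordinates belong to GRCr8 alone, because the build behind the counts is not given in the sources used here. Rag1 lies on the minus strand at chr3:108383135-108383434, Vpreb1 on the plus strand at chr11:97630924-97631223, Vpreb2 on the minus strand at chr11:96514355-96514654, Igll1 on the plus strand at chr11:97642937-97643236 and Cd24 on the plus strand at chr20:48656227-48656526. Capitals mark matches, on either strand, to CAGGTG, an E box of the kind bound by E proteins such as the product of Tcf3, or to TGGGAA, the core bound by Ikaros. The palindrome bound by EBF1 was searched as well.
Rag1: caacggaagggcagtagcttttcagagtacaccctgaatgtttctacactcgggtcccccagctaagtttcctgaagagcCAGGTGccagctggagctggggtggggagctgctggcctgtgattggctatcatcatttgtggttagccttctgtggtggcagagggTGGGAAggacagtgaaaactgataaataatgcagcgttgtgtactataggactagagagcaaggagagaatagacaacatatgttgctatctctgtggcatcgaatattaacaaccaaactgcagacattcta
Vpreb1: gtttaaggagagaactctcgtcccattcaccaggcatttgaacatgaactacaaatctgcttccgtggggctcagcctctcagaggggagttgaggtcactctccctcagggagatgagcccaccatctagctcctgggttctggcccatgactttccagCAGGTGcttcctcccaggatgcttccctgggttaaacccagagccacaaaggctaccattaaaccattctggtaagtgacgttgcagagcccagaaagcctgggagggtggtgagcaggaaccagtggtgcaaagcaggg
Vpreb2: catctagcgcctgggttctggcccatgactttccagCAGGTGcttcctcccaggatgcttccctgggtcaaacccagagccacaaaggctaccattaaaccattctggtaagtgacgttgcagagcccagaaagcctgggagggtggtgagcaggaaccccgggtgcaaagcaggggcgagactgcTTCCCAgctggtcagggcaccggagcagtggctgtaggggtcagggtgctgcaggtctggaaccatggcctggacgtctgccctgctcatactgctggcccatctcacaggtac
Igll1: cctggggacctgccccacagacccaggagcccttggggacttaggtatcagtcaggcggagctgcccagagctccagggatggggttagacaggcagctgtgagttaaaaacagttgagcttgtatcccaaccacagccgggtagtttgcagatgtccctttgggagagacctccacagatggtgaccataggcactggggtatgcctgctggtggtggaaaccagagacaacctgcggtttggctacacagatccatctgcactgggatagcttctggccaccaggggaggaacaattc
Cd24: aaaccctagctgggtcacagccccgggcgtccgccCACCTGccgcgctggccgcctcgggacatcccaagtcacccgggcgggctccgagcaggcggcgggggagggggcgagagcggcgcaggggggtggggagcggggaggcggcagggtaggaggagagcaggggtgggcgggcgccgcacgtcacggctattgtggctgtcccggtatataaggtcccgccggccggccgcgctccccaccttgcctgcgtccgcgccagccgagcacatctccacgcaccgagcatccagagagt

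CAGGTG was found in 5 of the 8 member windows, against 18.8% of the 33469 windows in the RefSeq table. Its matches began at base -170 from the start in Rag1, 38 in Dntt, -90 in Vpreb1, -224 in Il7r and -215 in Cd24. TGGGAA was found in 2 of the 8, Rag1 at -83 and Dntt at -241 and -147, against 25.7% of all windows. The EBF1 palindrome was found in 0 of the 8 and in 0.834% of all windows. With the window shortened to 150 bases before the start, CAGGTG was left in 2 of the 8 members, against 12.7% of all windows. A match of letters is a description of the window and not a measured binding site. The Vpreb1 and Vpreb2 windows share an unbroken run of 90 bases, which begins at -57 in Vpreb1 and at -181 in Vpreb2. Their CAGGTG matches lie before that run, at -90 and -214, and Vpreb2 also has a TGGGAA match at -64. Rag1 and Rag2 are neighbours on chromosome 3 with 0 annotated genes between them, and Vpreb1 and Igll1 lie on chromosome 11 with 1 gene between them that is not protein coding.

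Rag1 and Rag2 encode the recombinase that cuts the V, D and J segments, and Dntt encodes terminal transferase, which adds bases at the joints. Rag1 stood at 18.6, 32.4 and 14.6 CPM in Model 1, 2 and 5, at 29.3, 37.8 and 39.9 CPM in GelMA 2, 3 and 4, and at 18.9, 22.4 and 18.9 CPM in PMLGH 2, 3 and 4. Model 2 overlapped the GelMA libraries, and the PMLGH libraries lay below all GelMA libraries. Rag1 was called higher in GelMA than in Model by 0.70 ± 0.21 (adjusted p = 0.024), and by 1.07 without Model 2. This call was lost without Model 1 (0.60, adjusted p = 0.094), Model 5 (0.47, adjusted p = 0.092), GelMA 3 (0.64, adjusted p = 0.08) or GelMA 4 (0.60, adjusted p = 0.091). Its adjusted p ran from 8.5e-06 to 0.14 over 17 alternatives. In PMLGH, Rag1 was called lower than in GelMA by 1.78-fold (log2 -0.83 ± 0.21, adjusted p = 0.038). That call was lost without GelMA 3, GelMA 4, PMLGH 2, PMLGH 3 or PMLGH 4, at -0.78, -0.74, -0.79, -0.91 and -0.79. Over 18 alternatives its adjusted p ran from 3.2e-05 to 0.24. Between PMLGH and Model the Rag1 difference was -0.13, with an interval from -0.57 to 0.32 (adjusted p = 0.71), and it was 0.24 without Model 2.

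Rag2 gave 8.32, 10.6 and 10.4 CPM in Model 1, 2 and 5, 12.4, 10.9 and 14.0 CPM in GelMA 2, 3 and 4, and 5.86, 8.54 and 7.30 CPM in PMLGH 2, 3 and 4. No PMLGH library reached a GelMA library, and PMLGH 3 alone overlapped Model. Rag2 was lower in PMLGH than in GelMA by 1.72-fold (log2 -0.78 ± 0.15, adjusted p = 0.0086), a call lost only without GelMA 4 (-0.69, adjusted p = 0.053) among 18 alternatives whose adjusted p began at 9e-05. It was the only member called between PMLGH and Model, where it was lower by 1.35-fold (-0.43 ± 0.15, adjusted p = 0.049). That call lay at the threshold: it was lost without Model 2 (-0.40), Model 5 (-0.40), GelMA 2 (-0.43), PMLGH 2 (-0.32) or PMLGH 4 (-0.44), and its adjusted p ran from 0.022 to 0.16 over 17 alternatives. Against Model, GelMA was 0.35 higher, with an interval from 0.03 to 0.67, and this did not pass (adjusted p = 0.11).

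Dntt stood at 13.3, 15.3 and 9.16 CPM in Model 1, 2 and 5, at 15.0, 17.3 and 16.8 CPM in GelMA 2, 3 and 4, and at 11.9, 14.2 and 13.5 CPM in PMLGH 2, 3 and 4. GelMA lay above PMLGH in every library, and Model spread across both. Neither difference passed: 0.38 for GelMA against Model (interval 0.06 to 0.70, adjusted p = 0.087) and -0.31 for PMLGH against GelMA (interval -0.63 to 0.01, adjusted p = 0.33). Without Model 2, Dntt was called higher in GelMA than in Model (0.51, adjusted p = 0.012, the lowest of 17 alternatives that reached 0.35). Between PMLGH and Model its difference was 0.06, with an interval from -0.26 to 0.39, and -0.14 without Model 5. Rag1, Rag2 and Dntt are also used by T cell precursors in the thymus. Ptcra, which encodes the pre-T cell receptor chain of that stage, had 7, 3 and 1 counts in Model, 2, 7 and 16 in GelMA and 9, 10 and 6 in PMLGH, in replicate order, and was too low to test.

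Vpreb1 and Igll1 encode the 2 parts of the surrogate light chain. Vpreb1 had the lowest counts of the members, at 2.36, 2.76 and 1.14 CPM in Model 1, 2 and 5, 3.90, 4.65 and 5.32 CPM in GelMA 2, 3 and 4, and 2.46, 2.16 and 1.31 CPM in PMLGH 2, 3 and 4. All GelMA libraries were above all Model and PMLGH libraries. Vpreb1 was 2.21-fold higher in GelMA than in Model (1.14 ± 0.30, adjusted p = 0.013) and 2.34-fold lower in PMLGH than in GelMA (-1.23 ± 0.30, adjusted p = 0.036). The first call was lost without Model 5 (0.84, adjusted p = 0.052) or GelMA 4 (1.01, adjusted p = 0.059), and its lowest adjusted p over 17 alternatives was 0.0017. The other was lost without GelMA 2 (-1.34), GelMA 3 (-1.22), GelMA 4 (-1.12), PMLGH 2 (-1.42), PMLGH 3 (-1.29) or PMLGH 4 (-1.0), and its adjusted p over 18 alternatives ran from 0.0022 to 0.15. PMLGH against Model gave -0.08 with a wide interval from -0.75 to 0.59, and 0.01, 0.14 and 0.14 without Model 1, Model 2 or PMLGH 4.

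Igll1 followed the same order of groups, at 13.4, 14.8 and 8.75 CPM in Model 1, 2 and 5, 15.5, 18.7 and 21.7 CPM in GelMA 2, 3 and 4, and 10.7, 13.3 and 9.46 CPM in PMLGH 2, 3 and 4. As with Vpreb1, GelMA did not overlap Model or PMLGH. It was 1.51-fold higher in GelMA than in Model (0.60 ± 0.18, adjusted p = 0.025) and 1.67-fold lower in PMLGH than in GelMA (-0.74 ± 0.18, adjusted p = 0.031). The call against Model was lost without Model 5 (0.39), GelMA 3 (0.57) or GelMA 4 (0.46), with adjusted p from 0.0041 to 0.13 over 17 alternatives. The call of PMLGH against GelMA was lost without GelMA 3 (-0.74), GelMA 4 (-0.62), PMLGH 2 (-0.72) or PMLGH 4 (-0.64), with adjusted p from 0.0011 to 0.15 over 18 alternatives. For PMLGH against Model the value was -0.14, with an interval from -0.53 to 0.24.

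The copy Vpreb2 and the related gene Vpreb3 were looked at after their values were seen. Vpreb2 had 2.04, 1.83 and 2.03 CPM in Model, 3.12, 4.21 and 4.08 CPM in GelMA and 3.05, 2.53 and 2.02 CPM in PMLGH, in replicate order. It was called higher in GelMA than in Model (0.95 ± 0.23, adjusted p = 0.0071), and its lower value in PMLGH than in GelMA did not pass (-0.59 ± 0.22, adjusted p = 0.20). The split of counts between Vpreb1 and Vpreb2 is uncertain, because the rule for reads that match both was not given in the sources used here. The count ratio of Vpreb1 to Vpreb2 was 1.16, 1.51 and 0.57 in Model, 1.25, 1.10 and 1.30 in GelMA and 0.81, 0.85 and 0.65 in PMLGH. Vpreb3, whose product binds immunoglobulin chains inside B cells, had 10.4, 17.6 and 7.81 CPM in Model, 14.6, 16.7 and 15.3 CPM in GelMA and 7.21, 7.92 and 6.90 CPM in PMLGH. It was called lower in PMLGH than in GelMA (-1.08 ± 0.21, adjusted p = 0.0089), except without PMLGH 4 (-1.04, adjusted p = 0.052, the highest of 18 alternatives that began at 1.2e-05). It was also called lower in PMLGH than in Model (-0.70 ± 0.21, adjusted p = 0.024). That call was lost without Model 2 (-0.34, adjusted p = 0.080), PMLGH 2 (-0.70), PMLGH 3 (-0.76) or PMLGH 4 (-0.66) and with limma on either log2 FPKM scale, and its adjusted p ran from 0.0016 to 0.095 over 17 alternatives.

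Ebf1 encodes the lineage factor and is also expressed in fat cell precursors and other stromal cells. Its levels were 35.6, 42.4 and 33.5 CPM in Model 1, 2 and 5, 42.3, 59.4 and 55.0 CPM in GelMA 2, 3 and 4, and 42.7, 47.0 and 32.7 CPM in PMLGH 2, 3 and 4. GelMA 2 was level with the top of Model and with PMLGH 2, and the other GelMA libraries were above all the rest. Ebf1 was 1.41-fold higher in GelMA than in Model (0.49 ± 0.14, adjusted p = 0.017). The call was lost without Model 1 (0.46), Model 5 (0.41), GelMA 3 (0.37) or GelMA 4 (0.43), and its adjusted p ran from 0.0013 to 0.10 over 17 alternatives. PMLGH was 0.36 below GelMA on the log2 scale with an interval from -0.64 to -0.07, which did not pass (-0.36 ± 0.13, adjusted p = 0.20). With no filter on low counts the adjusted p of this difference was 0.049, the lowest of 18 alternatives that reached 0.52. PMLGH against Model gave 0.13, with an interval from -0.16 to 0.43.

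Il7r encodes the alpha chain of the IL-7 receptor, which T cells and innate lymphoid cells also carry. It stood at 34.6, 42.8 and 31.6 CPM in Model 1, 2 and 5, at 39.5, 36.7 and 40.1 CPM in GelMA 2, 3 and 4, and at 40.0, 46.5 and 43.3 CPM in PMLGH 2, 3 and 4. Model spanned the GelMA values and the lowest PMLGH value, and no pair of groups was separated. Il7r passed in 0 of the 3 comparisons: 0.10 for GelMA against Model (interval -0.11 to 0.30), 0.16 for PMLGH against GelMA (interval -0.05 to 0.37) and 0.25 for PMLGH against Model (interval 0.04 to 0.46, adjusted p = 0.067). Without Model 2 the last of these was called (0.36, adjusted p = 0.0024, the lowest of 17 alternatives that reached 0.31). Without Model 5 the difference of GelMA from Model was -0.01.

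Cd24, a surface protein also found on red cell precursors and other immature cells, gave the firmest calls. It stood at 66.1, 104 and 69.9 CPM in Model 1, 2 and 5, at 127, 124 and 133 CPM in GelMA 2, 3 and 4, and at 68.5, 81.2 and 58.5 CPM in PMLGH 2, 3 and 4. The GelMA libraries were close together and above all others. Cd24 was 1.61-fold higher in GelMA than in Model (0.68 ± 0.14, adjusted p = 0.0025), and this call was kept in 17 of 17 alternatives (highest adjusted p = 0.043). It was 1.85-fold lower in PMLGH than in GelMA (-0.89 ± 0.14, adjusted p = 0.0016). Among 18 alternatives, with adjusted p from 1.6e-07 to 0.063, the latter call was lost only with a robust estimate of the spread. For PMLGH against Model the difference was -0.20, with an interval from -0.50 to 0.09.

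**Figure D2:**
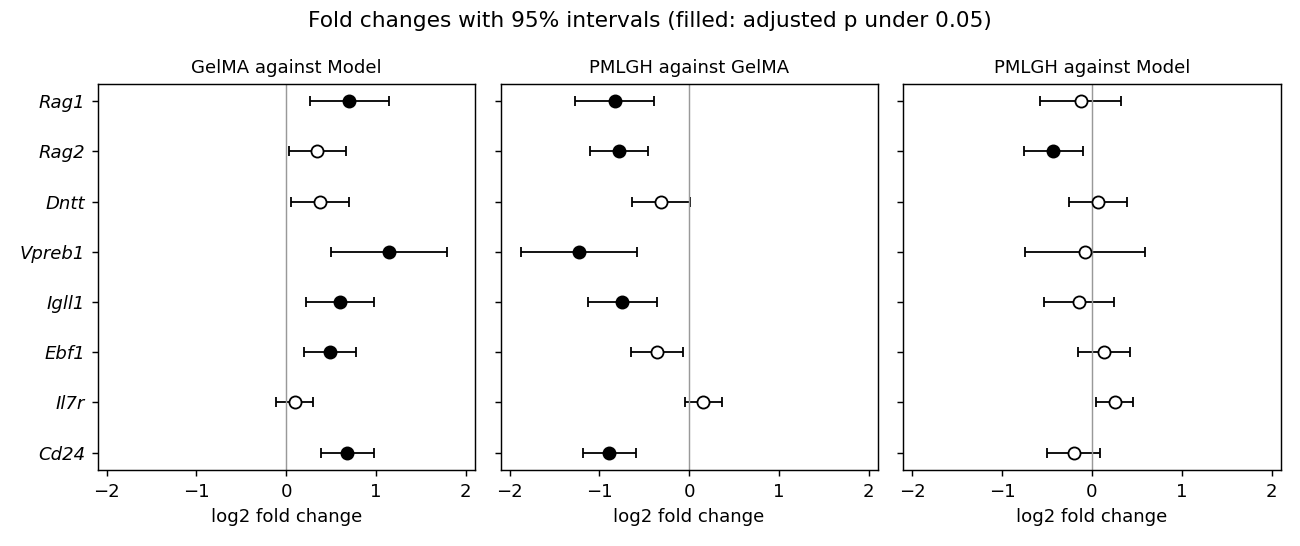
Log2 fold change of each B cell precursor gene (horizontal axes) with its 95% interval in GelMA against Model, PMLGH against GelMA and PMLGH against Model, filled where the adjusted p is under 0.05. The 5 filled points of the first panel lie right of 0, the 5 of the middle panel lie left of 0, and Rag2 is the only filled point of the last.

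Counted over the set, GelMA against Model gave 5 members higher (Rag1, Vpreb1, Igll1, Ebf1 and Cd24), 0 lower and 3 that did not pass, beside 12.7% of all tested genes called higher and 9.88% called lower (22.6% in all). The median log2 fold change of the 8 members was 0.54, and that of all tested genes 0.03. In 4 of the 8 (Rag2, Vpreb1, Igll1 and Cd24) every GelMA library was above every Model library, a separation seen in 19.8% of all tested genes. The number of members called was 3 without Model 1, 6 without Model 2, 1 without Model 5, 2 without GelMA 3 and 1 without GelMA 4. A robust estimate of the spread ended the calls of Rag1 and Ebf1, DESeq2 that of Rag1, and limma on log2(FPKM + 1) those of Rag1, Igll1 and Ebf1.

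PMLGH against GelMA gave 5 members lower (Rag1, Rag2, Vpreb1, Igll1 and Cd24), 0 higher and 3 that did not pass, beside 1.64% of all tested genes called lower and 1.8% called higher (3.44% in all). The members' median was -0.76, where the median of all tested genes was 0.00 and 5% to 95% of them lay between -0.67 and 0.53. In 6 of the 8, Dntt in addition to the called genes, every PMLGH library was below every GelMA library, which held for 11.4% of all tested genes. The number called was 2 without GelMA 3, 1 without GelMA 4, 2 without PMLGH 2, 3 without PMLGH 3 and 2 without PMLGH 4, and 5 without any single Model library. The robust spread ended the calls of Rag1, Igll1 and Cd24, DESeq2 that of Rag1, and limma on either log2 FPKM scale those of Rag1, Vpreb1 and Igll1.

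PMLGH against Model gave 1 member lower (Rag2), 0 higher and 7 that did not pass, beside 11.9% of all tested genes called lower and 15.7% called higher (27.5% in all). The members' median was -0.10, that of all tested genes was 0.02, and 0 of the 8 had groups that did not overlap, against 39.4% of all tested genes. The count was 0 without Model 5, GelMA 2, PMLGH 2 or PMLGH 4. Without Model 2 it was 1, and that gene was Il7r, higher in PMLGH, in place of Rag2. The 3 comparisons share libraries, so they are not independent of one another.

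Levels between genes were compared per length, as FPKM (fragments scaled to gene length and library total). Cd24 was the most abundant member in every group, with a mean of 42.7 FPKM in Model, 70.4 in GelMA and 37.5 in PMLGH, followed by Igll1 at 11.8, 18.4 and 10.8. In Model the order went on with Il7r at 7.06, Dntt at 6.49, Ebf1 at 6.04, Rag1 at 3.32, Rag2 at 2.72 and Vpreb1 at 2.61 FPKM. Only Cd24 from Igll1, and Ebf1 from Rag1, had library ranges that did not overlap between neighbours in this order. In GelMA it went on with Ebf1 at 8.72, Dntt at 8.65, Il7r at 7.74, Vpreb1 at 5.93, Rag1 at 5.54 and Rag2 at 3.56 FPKM. There Igll1 was also separated from Ebf1, Il7r from Vpreb1 and Rag1 from Rag2. In PMLGH it went on with Il7r at 8.49, Dntt at 6.84, Ebf1 at 6.69, Rag1 at 3.07, Vpreb1 at 2.49 and Rag2 at 2.03 FPKM, with Il7r separated from Dntt and Ebf1 from Rag1.

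**Figure D3:**
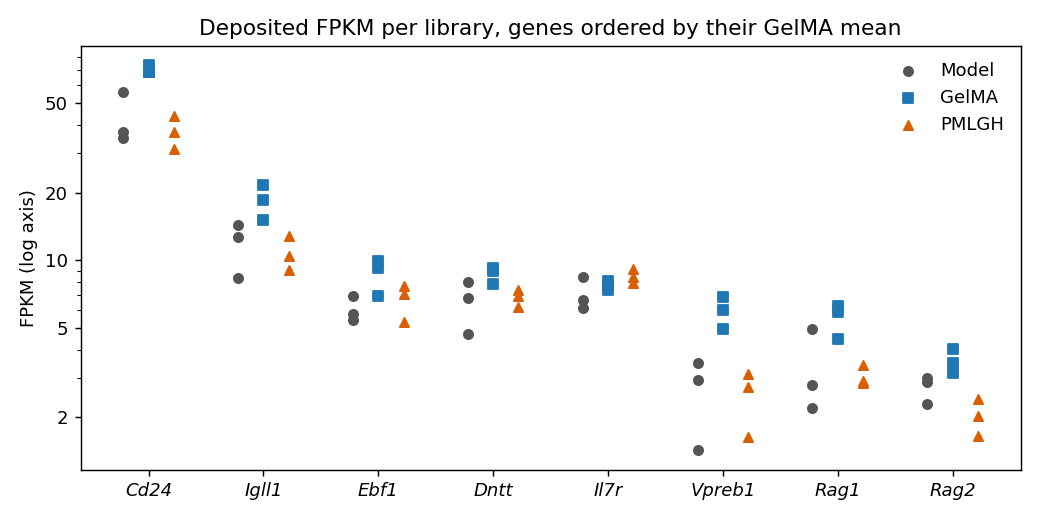
Deposited FPKM of the B cell precursor genes (log axis) in each Model, GelMA and PMLGH library, ordered by the GelMA mean. Cd24 lies above all other members in every library, and Rag2 has the lowest mean in GelMA at 3.56 FPKM.

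Ratios between genes were taken within each library, as a description with no test. The FPKM ratio of Igll1 to Vpreb1 was 4.35, 4.12 and 5.87 in Model, 3.06, 3.09 and 3.13 in GelMA and 3.34, 4.73 and 5.56 in PMLGH. The GelMA libraries had the 3 lowest ratios, and the uncertain split of counts between Vpreb1 and Vpreb2 may affect them. The FPKM ratio of Rag1 to Rag2 was 1.22, 1.66 and 0.77 in Model, 1.29, 1.88 and 1.54 in GelMA and 1.76, 1.42 and 1.40 in PMLGH, and the groups overlapped. Rag1 was also set against Ms4a1, which encodes the B cell marker CD20 and was listed here with the mature B cell markers. In Model this FPKM ratio was 0.26, 0.33 and 0.23. It was 0.39, 0.40 and 0.39 in GelMA and 0.39, 0.37 and 0.32 in PMLGH. The GelMA ratios were above all Model ratios and reached the top of the PMLGH ratios.

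Across the 9 libraries, which share the groups and differ little in depth, each member's log2 CPM was set against the mean standardised log2 CPM of Rag1, Rag2, Dntt, Vpreb1, Igll1 and Ebf1, leaving out the member itself. Pearson's r was 0.97 for Igll1, 0.96 for Rag1, 0.93 for Cd24, 0.92 for Vpreb1, 0.84 for Dntt, 0.82 for Ebf1, 0.60 for Rag2 and 0.22 for Il7r. Il7r therefore stood furthest from the rest, and Rag2 next. Among 14207 other tested genes that averaged 1 CPM or more, the profile most like the mean of those 6 genes belonged to Dpp4 (r = 0.969), Ccdc187 (0.967), Stambpl1 (0.962), Aatk (0.958), Blnk (0.957) and Rasal1 (0.954). These are descriptions over 9 libraries with no test. Dpp4, a surface peptidase, averaged 40.8 CPM in Model, 53.8 in GelMA and 34.9 in PMLGH. Blnk, the adaptor that carries the signal of the precursor B cell receptor, averaged 43.2, 59.9 and 44.0 CPM.

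The partners of these genes in the B lineage were taken from a list of 30 tested transcription factors and receptor signalling genes. In GelMA against Model 10 were higher and 0 lower (median 0.27), beside 12.7% and 9.88% of all tested genes. In PMLGH against GelMA 0 were higher and 10 lower (median -0.22), beside 1.8% and 1.64% of all tested genes. Pax5, which fixes B cell identity, had 25.4, 37.3 and 26.2 CPM in Model, 33.7, 44.4 and 45.3 CPM in GelMA and 23.0, 25.3 and 19.8 CPM in PMLGH. It was lower in PMLGH than in GelMA by 0.86 on the log2 scale (-0.86 ± 0.14, adjusted p = 0.0028), a call kept in 18 of 18 alternatives (highest adjusted p = 0.038). Cd79a, a signalling chain of the B cell receptor and of its precursor form, had 114, 169 and 105 CPM in Model, 152, 186 and 193 CPM in GelMA and 108, 108 and 94.5 CPM in PMLGH. It was likewise lower in PMLGH than in GelMA (-0.77 ± 0.14, adjusted p = 0.0043), a call lost among 18 alternatives with a robust spread alone. Genes called lower there also included Tcf3, Spib, Myb, Bach2, Pou2af1, Cd79b and Vpreb3. Between PMLGH and Model 4 of the 30 were higher and 4 lower (median -0.07), beside 15.7% and 11.9% of all tested genes. That count of 8 was near the share of all tested genes called, 27.5%. It was 13 without Model 5 and 5 without PMLGH 4. The 10 calls of PMLGH against GelMA became 4 without GelMA 3, 4 without GelMA 4, 5 without PMLGH 3 and 3 without PMLGH 4. The 10 of GelMA against Model became 1 without Model 1, 23 without Model 2, 1 without Model 5, 2 without GelMA 3 and 1 without GelMA 4.

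Mature B cell markers shared part of this pattern, in PMLGH against GelMA. Of 16 tested, 3 were higher and 0 lower in GelMA against Model (median 0.18), beside 12.7% and 9.88% of all tested genes. In PMLGH against GelMA 0 were higher and 4 lower (median -0.24), beside 1.8% and 1.64% of all tested genes. The 4 were Ms4a1, Cr2, Tnfrsf13c and Cd72. Ms4a1 was lower in PMLGH than in GelMA (-0.70 ± 0.15, adjusted p = 0.015) and than in Model (-0.51 ± 0.15, adjusted p = 0.021). The former call was lost without GelMA 3 (-0.67), GelMA 4 (-0.61) or PMLGH 2 (-0.62), and the latter without PMLGH 2 (-0.43). With limma on either log2 FPKM scale neither was called (adjusted p = 0.065 and 0.071 against GelMA, 0.071 and 0.081 against Model). The 4 calls were 8 without Model 2, 0 without GelMA 3, GelMA 4 or PMLGH 2, and 1 without PMLGH 3 or PMLGH 4. The 3 calls of GelMA against Model were 9 without Model 2 and 1 without Model 1, Model 5, GelMA 3 or GelMA 4. The summed level of the markers was 554 to 755 CPM in Model, 685 to 703 CPM in GelMA and 582 to 671 CPM in PMLGH, so GelMA lay above PMLGH and inside the range of Model. In PMLGH against Model 1 marker was higher and 3 were lower (median -0.12), beside 15.7% and 11.9% of all tested genes. That count of 4 was 2 without PMLGH 2. The part of mature B cells in the members' values was not tested.

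Other genes act beside the members on DNA and in IL-7 signalling. Over all tested genes, the shares called were 22.6% in GelMA against Model, 3.44% in PMLGH against GelMA and 27.5% in PMLGH against Model. Of 18 tested partners of V(D)J recombination and DNA end joining, 2 were lower in PMLGH than in GelMA (median -0.03), Polm and Lig4, and 0 higher. Polm encodes a polymerase that fills gaps at recombination joints and is related to terminal transferase. It had 15.4, 25.1 and 15.8 CPM in Model, 25.7, 28.6 and 27.0 CPM in GelMA and 15.5, 17.6 and 17.1 CPM in PMLGH, and was called higher in GelMA than in Model (0.53 ± 0.15, adjusted p = 0.017) and lower in PMLGH than in GelMA (-0.70 ± 0.15, adjusted p = 0.014). The higher value in GelMA was not called without Model 1 (0.40), Model 5 (0.41) or GelMA 3 (0.47), nor the lower value in PMLGH without GelMA 3 (-0.66), PMLGH 2 (-0.65), PMLGH 3 (-0.73) or PMLGH 4 (-0.71). With limma on either log2 FPKM scale the latter was not called (adjusted p = 0.057 and 0.059). The 2 calls of the list became 0 without GelMA 3 or PMLGH 4 and 1 without GelMA 4, PMLGH 2 or PMLGH 3. In this list 1 gene was higher and 2 lower in GelMA against Model (median -0.03), a count of 3 that was 5 without Model 2. In PMLGH against Model 1 was higher and 5 lower (median -0.13), and the count of 6 was 2 without Model 1 or PMLGH 3 and 3 without Model 5 or PMLGH 4.

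Of 18 tested genes of IL-7 signalling and the marrow niche, 1 was higher in PMLGH than in GelMA (median 0.04). It was Socs1, a feedback inhibitor of cytokine receptors including that of IL-7, with 1.74, 2.11 and 2.91 CPM in Model, 2.87, 2.76 and 2.43 CPM in GelMA and 6.42, 4.99 and 5.45 CPM in PMLGH. It was higher in PMLGH than in Model (1.32 ± 0.21, adjusted p = 0.00036) and than in GelMA (1.06 ± 0.21, adjusted p = 0.0093), the latter lost without GelMA 4 (0.99) or PMLGH 2 (0.95). Il2rg, which encodes the common gamma chain that pairs with IL7R, was higher than in Model in both GelMA (0.53 ± 0.11, adjusted p = 0.0028) and PMLGH (0.56 ± 0.11, adjusted p = 0.0017). Stat5a was lower than in Model in both GelMA (-0.21 ± 0.07, adjusted p = 0.047) and PMLGH (-0.29 ± 0.07, adjusted p = 0.0091). Its call in GelMA was lost in 9 of 17 alternatives. Vcam1 was lower than in Model in GelMA (-0.36 ± 0.07, adjusted p = 0.0016) and did not pass in PMLGH (-0.19 ± 0.07, adjusted p = 0.059). Il7 itself averaged 3.57 CPM in Model, 3.87 in GelMA and 4.38 in PMLGH and passed in 0 of the 3 comparisons. In the list, 1 was higher and 2 lower in GelMA against Model (median 0.11), a count of 3 that was 5 without Model 2. In PMLGH against Model 3 were higher and 1 lower (median 0.14). Beside these, 22.6% of all tested genes were called in GelMA against Model, 3.44% in PMLGH against GelMA and 27.5% in PMLGH against Model.

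**Figure D4:**
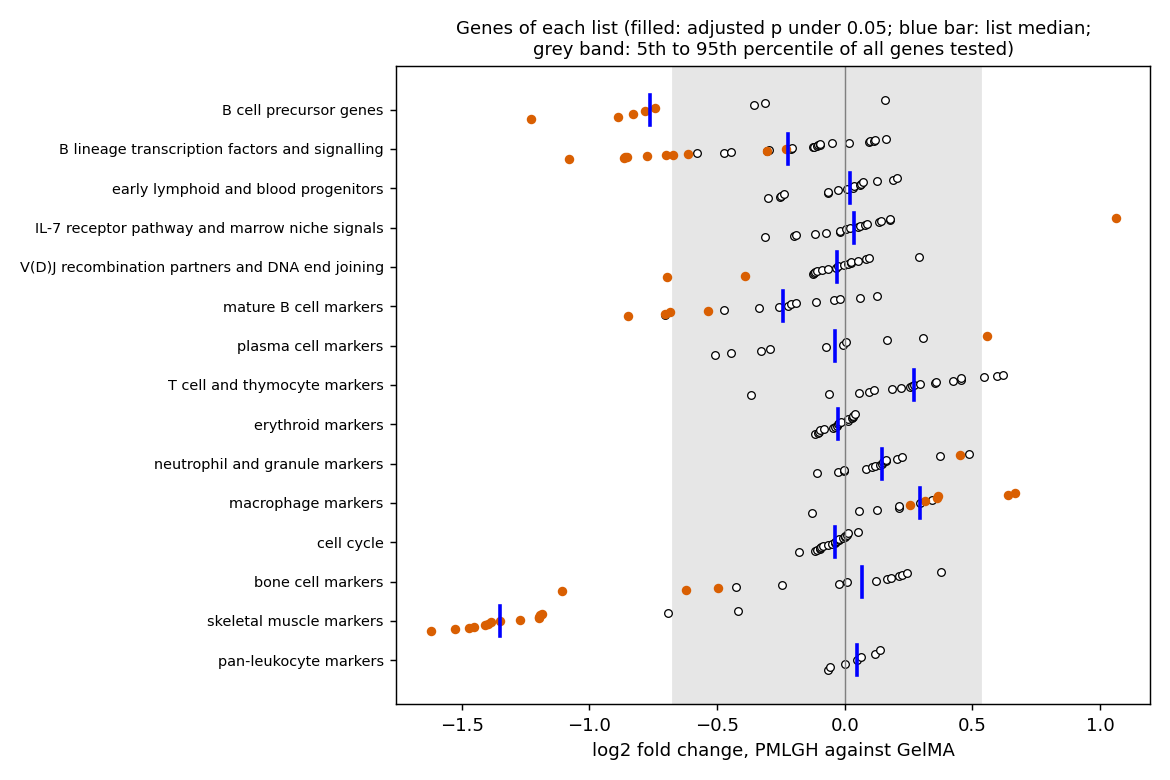
Log2 fold change of every tested gene of the B cell precursor set and of 14 other lists in PMLGH against GelMA (horizontal axis), filled where the adjusted p is under 0.05, with a bar at each list's median and a band from the 5th to the 95th percentile of all genes tested. The median of the precursor genes, at -0.76, lies left of the band, as does that of the skeletal muscle markers at -1.35, while the other medians lie inside it.

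Markers of other cells in the sample also differed between the groups. The shares of all tested genes called were 22.6% in GelMA against Model, 3.44% in PMLGH against GelMA and 27.5% in PMLGH against Model. Skeletal muscle markers moved in the same 2 comparisons as the members: 15 of 15 were higher in GelMA than in Model (median 2.08), 13 of 15 were lower in PMLGH than in GelMA (median -1.35), and 13 of 15 were higher in PMLGH than in Model (median 0.66). Their summed level was 620 to 861 CPM in Model, 2887 to 3533 CPM in GelMA and 985 to 1354 CPM in PMLGH, and no marker of the list was at 0. Within Model, Model 2 had the lowest muscle sum at 620 CPM and the highest sum of the precursor genes. T cells also carry the IL-7 receptor. Of their markers, 11 of 19 were higher in PMLGH than in Model (median 0.72), 8 of 19 were higher in GelMA than in Model (median 0.45) and 0 of 19 were called by edgeR in PMLGH against GelMA (median 0.27), where 7 had an unadjusted p under 0.05 and DESeq2 called 3. That count of 0 was 2 without Model 1, 3 without Model 2 and 1 without GelMA 3. Their sum was 244 to 298 CPM in Model, 321 to 342 in GelMA and 380 to 393 in PMLGH. Cd4 alone gave 137 to 160 CPM of it in Model, 169 to 183 in GelMA and 199 to 206 in PMLGH. By the mean log2 CPM of the list, PMLGH 4 at 2.83 lay just below GelMA 2 at 2.84.

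Erythroid markers, of cells that also carry CD24, were lower than in Model in GelMA (15 of 17, median -0.43) and PMLGH (17 of 17, median -0.42), with 0 of 17 called between PMLGH and GelMA by edgeR, 0 at an unadjusted p under 0.05 and 0 by DESeq2. Their sum was 15137 to 18770 CPM in Model, 12881 to 13813 in GelMA and 12142 to 13545 in PMLGH. It was highest in Model, and its GelMA and PMLGH ranges overlapped. Of 7 pan-leukocyte markers edgeR called 0 in GelMA against Model (median 0.08), where 1 had an unadjusted p under 0.05 and DESeq2 called 1. Without Model 2 that count was 4, and without GelMA 2 it was 1. It called 0 in PMLGH against GelMA (median 0.05), with 0 at an unadjusted p under 0.05 and 0 by DESeq2. Their sum was 2103 to 2750 CPM in Model, 2454 to 2663 in GelMA and 2487 to 2709 in PMLGH, and 1 of the 7 was higher and 1 lower in PMLGH against Model (median 0.14). That count of 2 was 6 without Model 2, 0 without Model 1, Model 5 or PMLGH 3, and 1 without PMLGH 4. Among all tested genes, 22.6% were called in GelMA against Model, 3.44% in PMLGH against GelMA and 27.5% in PMLGH against Model. The part of these other cells in the members' values was not tested.

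**Figure D5:**
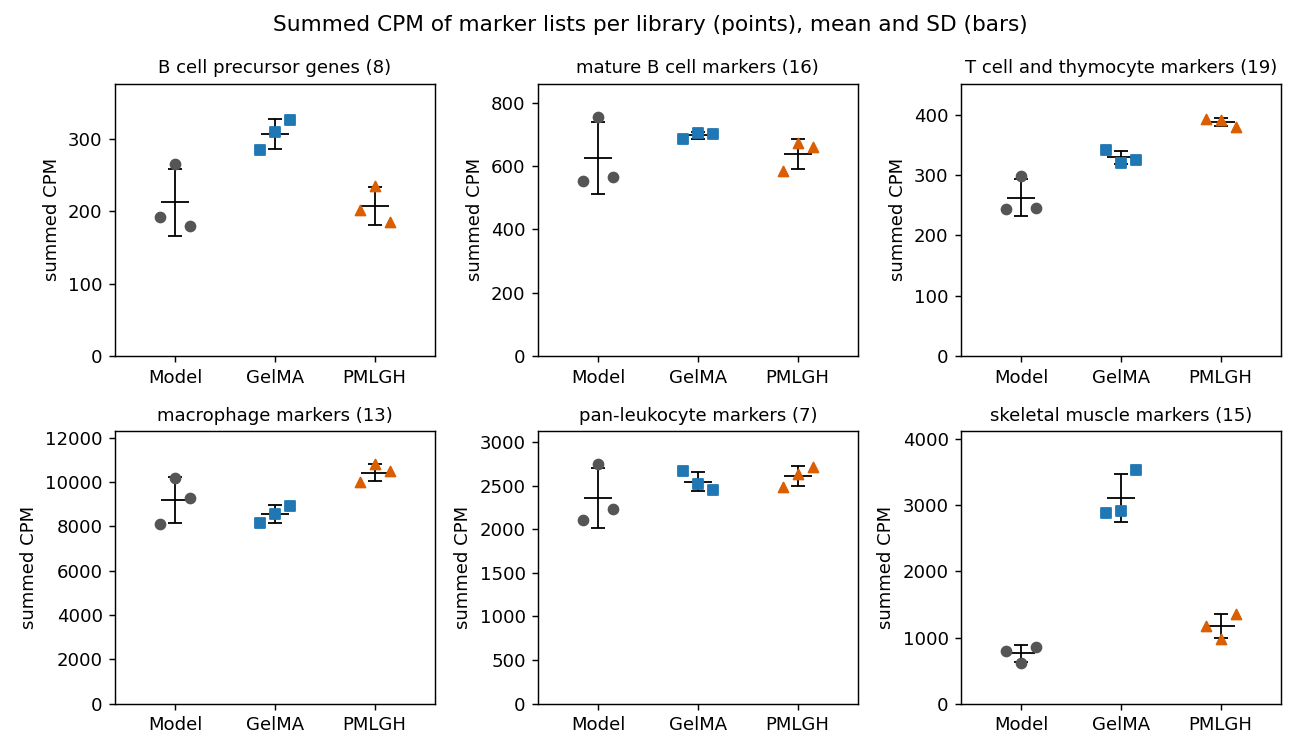
Summed CPM per library (vertical axes, linear from 0) of the B cell precursor genes and of 5 marker lists, with the number of genes in parentheses, points for libraries and bars for the mean and SD. The precursor genes and the muscle markers are highest in GelMA, whereas the T cell markers are highest in PMLGH, at 380 to 393 CPM.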

How the data were processed

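Per the file headers, the authors deposited raw counts per gene symbol and FPKM for the same 9 libraries. The FPKM equalled count divided by library total and gene length within a relative tolerance of 1e-04 for 22798 genes, so they hold no separate measurement, and the other 970 genes had 0 counts everywhere. The submitters' processing notes name DESeq2 and R 3.2.0. The aligner, counter, build, annotation and strand setting were not given in the sources used here, and reads of overlapping antisense genes may be mixed. No column was left unmapped, and no pair of replicates was a copy.

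Counts were filtered with filterByExpr (16816 genes), scaled by TMM and fitted with edgeR 4.0.16 in R 4.3.3 by quasi-likelihood with 1 mean per group over all 9 libraries (6 residual degrees of freedom, common biological coefficient of variation 10.1%). SE is the absolute log2 fold change divided by the square root of F, and intervals are approximate. Log2 CPM for correlations used a prior count of 2. Limma 3.58.1 on log2(FPKM + 0.1) or log2(FPKM + 1) and DESeq2 1.42.0 were alternatives, beside other scalings, filters, samples and left-out libraries. The script was tested on simulated counts with known changes.

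The members and the gene lists, which come from general knowledge, were chosen with earlier results of these data known. The text names all members, genes taken from the up to 4 of smallest p per list, some key genes such as Il7 and Ms4a1, genes behind a printed count, and the 6 of highest correlation. Promoter windows matched 7 members by symbol and Vpreb1 by an older name, and the first window listed per gene was used. Ighm was not analysed here.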

Additional observations from a re-analysis of the deposited data

How the results depend on the processing

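Of 416 alternative values of the members' log2 fold changes, 352 kept direction and side of the threshold, 55 lost the call, 3 gained one and 6 reversed. Under the other scalings 48 of 48 were unchanged. All reversals were of differences that had not passed and came with 1 library left out. In PMLGH against Model these values ran from -0.39 to 0.14 for Vpreb1 (reversed to 0.01, 0.14 and 0.14 without Model 1, Model 2 or PMLGH 4), from -0.36 to 0.24 for Rag1 (reversed without Model 2) and from -0.14 to 0.20 for Dntt (reversed without Model 5). In GelMA against Model the values of Il7r ran from -0.0052 to 0.20 (reversed without Model 5). Il7, which is not a member, added 3 reversals: its values ran from -0.20 to 0.30 in GelMA against Model (reversed to -0.0011 and -0.20 without Model 2 or GelMA 4) and from -0.0011 to 0.47 in PMLGH against GelMA (reversed without GelMA 2).

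Members called in GelMA against Model were 3 with a robust spread, 3 with limma on log2(FPKM + 0.1) and 2 on log2(FPKM + 1), and 1 to 6 with 1 library left out. In PMLGH against GelMA they were 2, 2 and 2 under these settings and 1 to 5 with 1 library left out. In PMLGH against Model they were 0 with only the groups compared and 0 and 0 with limma, and 0 to 1 with 1 library left out. Over all genes, the 578 called in PMLGH against GelMA were 909 with DESeq2, 1059 with only the groups compared, 384 with limma on log2(FPKM + 0.1) and 303 to 1050 with 1 library left out, the corresponding ranges being 2601 to 5053 for GelMA against Model and 3244 to 5668 for PMLGH against Model. The causes were not tested.

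The replicate numbers shared by GelMA and PMLGH did not pair the libraries: deviations of same-numbered libraries correlated at 0.014, 0.027 and -0.008, and GelMA 4 did not correlate best with its own number. With the number as a replicate block, 1037 genes and 5 members were called. Model shares only 1 number with them, and no blocked fit was made there. CAGGTG was in 5 of 8 member promoters, and in 2 with the shorter window. The 39 to 4937 counts per member limit Vpreb1 most.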

Other observations

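Plasma cell markers, the other end of the B lineage, followed another order than the precursor genes. Of 10 tested, 5 were higher (Sdc1, Mzb1, Xbp1, Prdm1 and Fkbp11) and 1 lower (Tent5c) in GelMA against Model (median 0.49). In PMLGH against Model the same 5 were higher and 2 lower, Tent5c and Ell2 (median 0.35). In PMLGH against GelMA 1 was higher (Sdc1) and 0 lower (median -0.04). The share of all tested genes called was 22.6%, 27.5% and 3.44% in these comparisons. Summed, the markers gave 779 to 966 CPM in Model, 768 to 821 in GelMA and 800 to 839 in PMLGH, so the groups overlapped. Early lymphoid and blood progenitor genes had 6 higher and 2 lower of 16 in GelMA against Model (median 0.21), a count of 8 that was 5 without GelMA 3 or GelMA 4, and 5 higher and 3 lower in PMLGH against Model (median 0.11). In PMLGH against GelMA edgeR called 0 of them (median 0.02), while 2 had an unadjusted p under 0.05, DESeq2 called 1 and edgeR called 2 without Model 2. Among them, Cd34, a surface marker of blood stem cells that vessels also carry, was higher than in Model in PMLGH (1.02 ± 0.13, adjusted p = 3.1e-05) and in GelMA (0.83 ± 0.13, adjusted p = 0.00027). Mme, which encodes CD10, was also higher than in Model in PMLGH (0.69 ± 0.09, adjusted p = 6.2e-05) and in GelMA (0.72 ± 0.09, adjusted p = 6.5e-05).

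Cell cycle genes had 13 of 20 lower in GelMA (median -0.23, and 8 without GelMA 4) and 17 of 20 lower in PMLGH (median -0.26) against Model. Between PMLGH and GelMA edgeR called 0 of 20 (median -0.04), 1 had an unadjusted p under 0.05 and DESeq2 called 0. Over all tested genes, the shares called were 22.6% in GelMA against Model, 3.44% in PMLGH against GelMA and 27.5% in PMLGH against Model. Bone cell markers had 14 of 14 higher in GelMA (median 0.68) and 10 of 14 higher in PMLGH (median 0.79) against Model, and 3 lower in PMLGH against GelMA (median 0.07), a count of 3 that was 7 without Model 2 and 5 without Model 5. Macrophage markers had 6 of 13 higher in PMLGH than in GelMA (median 0.29), 9 higher in PMLGH than in Model (median 0.44), and 4 higher and 1 lower in GelMA against Model (median 0.20). Neutrophil markers had 1 of 17 higher in PMLGH than in GelMA (median 0.15), 5 higher and 1 lower in PMLGH against Model (median 0.19) and 2 higher in GelMA against Model (median 0.08). The first of these counts was 3 without Model 2, 2 without PMLGH 2 and 0 without GelMA 2, GelMA 4, PMLGH 3 or PMLGH 4. The 6 of PMLGH against Model were 12 without Model 2, and the 2 of GelMA against Model were 5 without Model 2 and 1 without Model 5, GelMA 2, GelMA 4, PMLGH 3 or PMLGH 4.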
